A study of Mus musculus with 4 samples.

Results

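YAP sites at the keratin genes were compared between epidermis of Bmal1 wild-type (WT) and Bmal1 knockout (KO) mice. The keratins were taken as every protein-coding gene of the mouse build GRCm38.p6 (mm10) whose symbol is Krt followed by a digit, which left out the keratin-associated protein genes (Krtap). This gave 53 of 21631 protein-coding genes, 27 on chromosome 11 and 26 on chromosome 15. A YAP peak was linked to a keratin when its summit, the highest point of the peak, lay inside the gene span or within 100 kb of it with no other protein-coding gene nearer. Of 36576 WT peaks, 130 were linked to a keratin, 66 on chromosome 11 and 64 on chromosome 15. Of 14879 KO peaks, 66 were linked, 31 on chromosome 11 and 35 on chromosome 15.

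The peaks came from YAP chromatin immunoprecipitation and sequencing (ChIP-seq) of mouse epidermis at an age of 18 to 25 weeks, collected at ZT4, that is, 4 hours into the light phase. The labels call one genotype Bmal1 WT and the other Bmal1 KO, with Bmal1cKO in the treatment protocol, and no source used here gives the cells in which Bmal1 was deleted. Each genotype has a single pooled peak list whose parts no source used here names, and the 2 input libraries were not analysed here. There is therefore no replicate error and no test. Intervals are exact 95% intervals (Clopper-Pearson for shares) and cover counting error only. Those of shares treat peaks or genes as independent draws, although neighbouring ones may not be. Strength is given as the number of ChIP reads at a summit, recovered from the deposited fold and −log10 p, against an even-spread background of 9.63 reads in both pools. The labels give 25 to 50 M reads per sample, and called summits started at 28 reads for WT and 29 for KO.

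Keratins are the intermediate filament proteins of epithelia, built as pairs of an acidic type I and a basic type II chain. Type I genes sit on mouse chromosome 11 and type II genes on chromosome 15, except the type I gene Krt18, which lies beside its partner Krt8 on chromosome 15. Basal keratinocytes make KRT5 and KRT14, differentiating cells above them switch to KRT1 and KRT10, and further pairs serve the hair follicle, nail, tongue and simple epithelia. YAP is a transcriptional co-activator that reaches DNA through TEAD proteins, and BMAL1 with its partner CLOCK drives the daily clock.

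Per length of DNA, the keratin clusters were dense in YAP summits in both genotypes. From the first to the last keratin, WT summits stood at 6.85 per 100 kb on chromosome 11 (1037 kb) and 8.34 on chromosome 15 (684 kb), against 1.39 over chromosomes 1 to 19 and X. In KO the densities were 2.80, 4.39 and 0.566. The clusters are also dense in genes, and these densities were not scaled to gene number. From the first to the last keratin lay 65 protein-coding genes and 71 WT summits on chromosome 11, and 27 genes and 57 summits on chromosome 15. Chromosomes 1 to 19 and X held 21631 genes and 36576 WT summits. The chromosome 11 cluster is split by a block of Krtap genes. Its first keratin block, from Krt222 to Krt40, held 9.02 WT summits per 100 kb and its second, from Krt33a to Krt42, 11.98. The 468 kb between them held 2.56 per 100 kb, with 12 WT and 3 KO summits. The epidermal differentiation complex on chromosome 3, from S100a10 to S100a1, another dense array of epidermal genes, held 3.80 WT and 1.87 KO summits per 100 kb. These differences in density have no replicate error and were not tested.

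**Figure D1:**
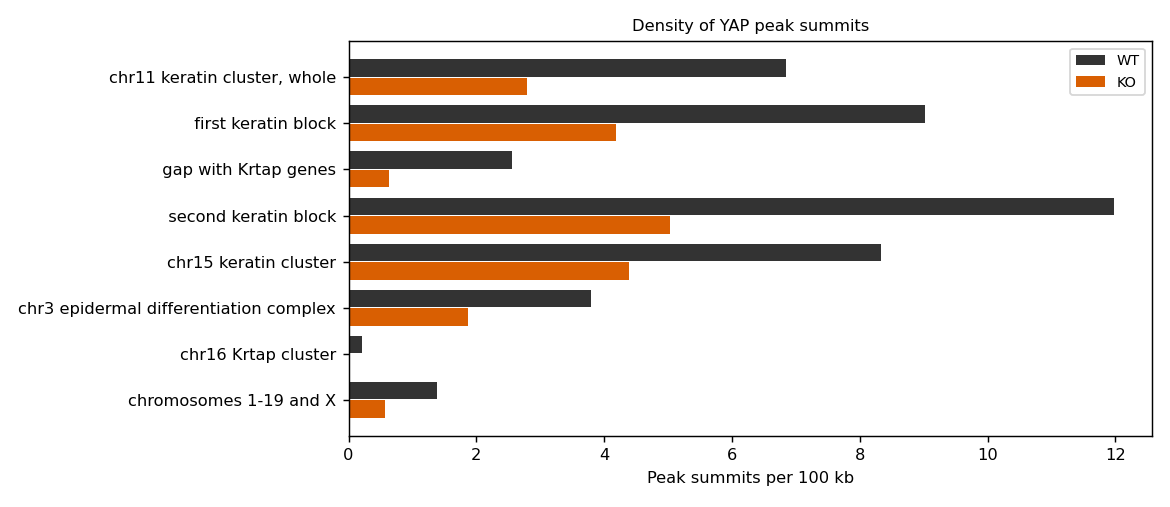
Peak summits per 100 kb (horizontal axis) in the WT (dark) and KO (orange) lists for the keratin clusters, the parts of the chromosome 11 cluster, 2 other gene arrays and chromosomes 1 to 19 and X. The second keratin block of chromosome 11 reaches 11.98 in WT, and the block of Krtap genes between the keratins 2.56.

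A WT peak was linked to 37 of the 53 keratins (69.8%, 95% interval 55.7 to 81.7), against 52.5% of all protein-coding genes. The number was 20 of 27 on chromosome 11 and 17 of 26 on chromosome 15. A KO peak was linked to 26 of 53 (49.1%, 35.1 to 63.2), against 29.8% of all genes, 14 on chromosome 11 and 12 on chromosome 15. A kept WT peak, meaning one sharing 1 bp or more with a KO peak, was linked to 26 of 53, against 29.7% of all genes. Keratins without a linked WT peak were Krt26, Krt27, Krt20, Krt34, Krt13, Krt19 and Krt16 on chromosome 11, and Krt87, Krt81, Krt82, Krt90, Krt6b, Krt71, Krt73, Krt4 and Krt18 on chromosome 15. In these tightly packed clusters that says only that another gene was nearer: the closest WT summit lay 2939 bp from Krt19, 4150 bp from Krt16 and 4158 bp from Krt81, and 22519 bp from Krt18. No source used here says how reads that fit near-identical copies, such as Krt6a and Krt6b or Krt33a and Krt33b, were treated. Peaks at these genes, and their absence at Krt6b, are therefore uncertain.

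**Figure D2:**
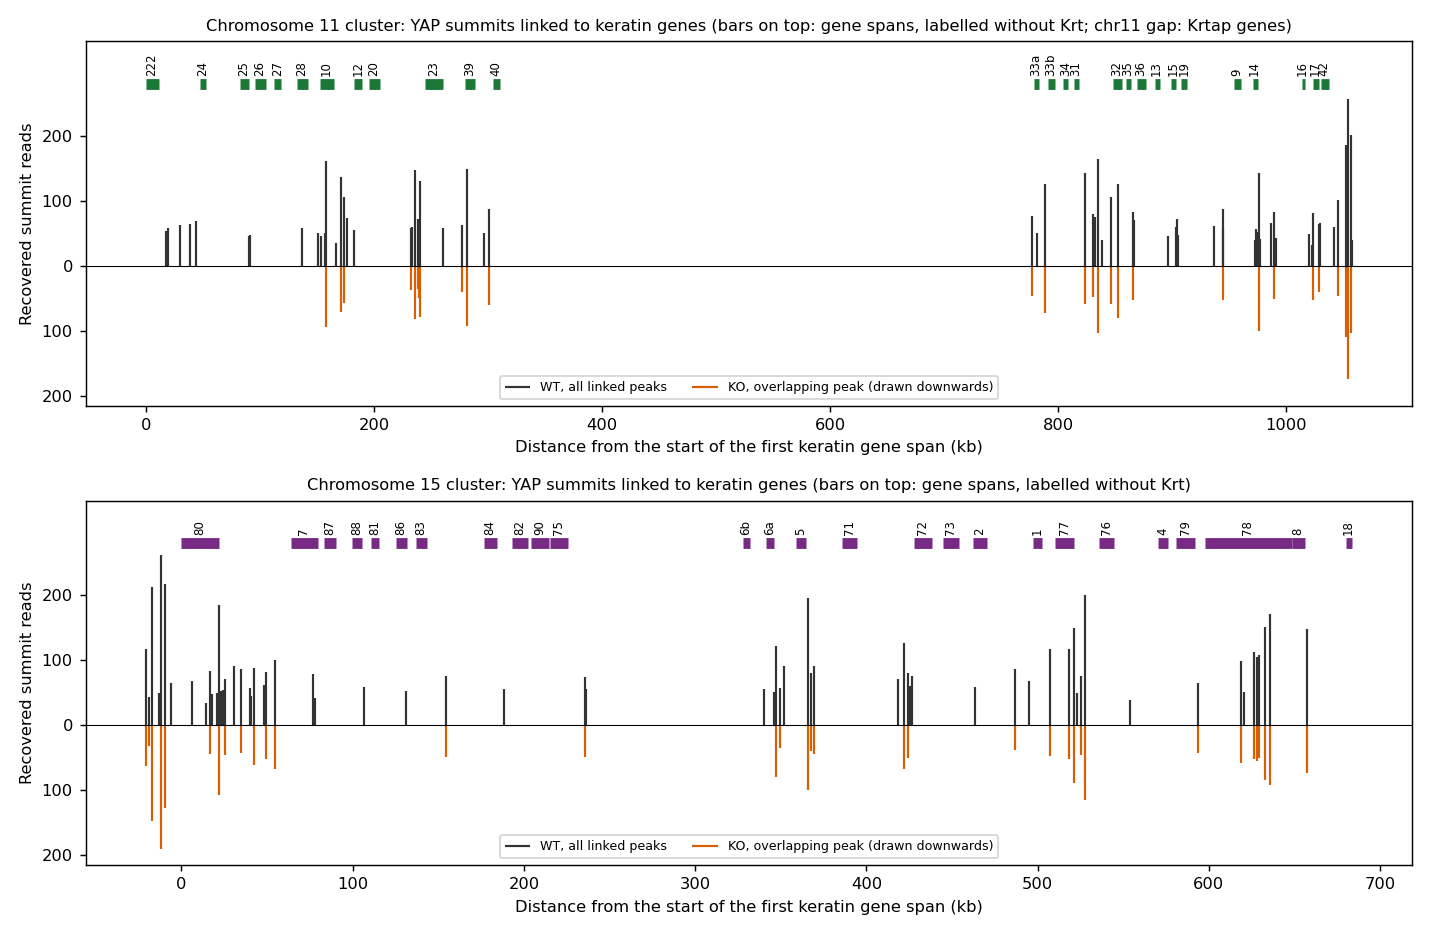
Recovered summit reads (vertical axis) of WT peaks linked to keratins, drawn upwards, and of the KO peak overlapping each, drawn downwards, along the 2 clusters (horizontal axis, kb from the start of the first keratin span), with gene spans as bars on top. The highest WT summits, of 257 and 261 reads, stand outside the last gene on chromosome 11 and outside the first gene on chromosome 15.

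The summits with the most reads lay just outside the clusters, beyond Krt42 on chromosome 11 and before Krt80 on chromosome 15. KRT42 is a type I keratin and KRT80 a type II keratin of differentiating epithelial cells. Beyond Krt42, 3 neighbouring peaks had 185, 257 and 201 WT reads. They spanned chromosome 11 from 100284510 to 100285824, 100286759 to 100287702 and 100288735 to 100289573, and lay 15251, 17267 and 19250 bp upstream of the Krt42 start. The overlapping KO peaks had 109, 174 and 104 reads. Before Krt80, 3 peaks at chromosome 15 from 101330675 to 101332896, 101336203 to 101337443 and 101338084 to 101339088 had 212, 261 and 217 WT reads. They lay 17034, 11672 and 9776 bp outside the Krt80 span, and the KO peaks there had 147, 191 and 128 reads. All 6 were thus lower in KO, and these groups hold the 5 highest keratin-linked WT summits of the 130. The KO to WT ratio of reads was 0.677 (counting interval 0.555 to 0.824) at the 257-read summit and 0.732 (0.604 to 0.885) at the 261-read summit. Among all gene types the nearest gene to the summits beyond Krt42 was the long noncoding RNA gene Gm14206, so their link to a keratin holds only among protein-coding genes. Of the 3 peaks before Krt80, the summit of 212 reads lay nearer to the long noncoding RNA gene Gm52200. Those of 261 and 217 reads did not lie nearer to a gene of another type. Other Krt80-linked summits, of up to 185 and 88 reads, lay nearer to the long noncoding RNA genes Gm35853 and Gm671. The summits of 185 and 88 reads stood on the other side of the Krt80 span. In all, 40 of the 130 keratin-linked WT summits lay nearer to a noncoding RNA gene or a pseudogene. They include every linked WT summit of Krt8, Krt9, Krt24, Krt25, Krt75, Krt83 and Krt222, and the strongest of Krt1 and Krt7.

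Few of the keratin promoters that could be examined carried a YAP summit, a share near that of all promoters. The RefSeq promoter table of GRCm38.p6 matched 36 of the 53 keratins with 37 start sites. A WT summit lay within the 250 bases upstream of 5 of these 37 (13.5%), against 14.0% of 21045 promoters of protein-coding genes. The 5 were at Krt14, Krt10, Krt77, Krt23 and Krt25. Of these 5, only the one at Krt77 was kept in KO. Keratins absent from the promoter table were not counted, although some had a WT summit close to a span end. At Krt17 a kept peak lay 59 bp outside the span, with 64 WT and 41 KO reads. WT-only peaks lay 130 bp outside the span of Krt6a (51 reads) and 210 bp outside that of Krt15 (60 reads). The upstream sequences of the 5 are shown because they are the places where YAP signal meets a keratin start of this promoter table. The Krt14 and Krt10 windows lie inside the RefSeq gene spans, which reach further upstream, to chr11:100207510 and chr11:99397449. These 2 starts are therefore not the outer ends of the spans. Each runs 5′ to 3′ on the minus strand and ends at the base before the start, and capitals mark matches to the motifs below. The windows are chr11:100206031-100206280 for Krt14, chr11:99389365-99389614 for Krt10, chr15:101869706-101869955 for Krt77, chr11:99493121-99493370 for Krt23 and chr11:99322952-99323201 for Krt25.
Krt14: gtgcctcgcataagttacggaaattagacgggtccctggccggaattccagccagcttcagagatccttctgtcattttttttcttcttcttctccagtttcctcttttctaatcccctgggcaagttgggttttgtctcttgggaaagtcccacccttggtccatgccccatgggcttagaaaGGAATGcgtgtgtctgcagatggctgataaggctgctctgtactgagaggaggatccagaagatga
Krt10: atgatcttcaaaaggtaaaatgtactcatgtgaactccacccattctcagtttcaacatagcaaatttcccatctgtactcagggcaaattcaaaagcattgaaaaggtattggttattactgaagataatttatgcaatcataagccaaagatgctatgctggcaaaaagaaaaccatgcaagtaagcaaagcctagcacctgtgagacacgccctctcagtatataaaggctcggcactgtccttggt
Krt77: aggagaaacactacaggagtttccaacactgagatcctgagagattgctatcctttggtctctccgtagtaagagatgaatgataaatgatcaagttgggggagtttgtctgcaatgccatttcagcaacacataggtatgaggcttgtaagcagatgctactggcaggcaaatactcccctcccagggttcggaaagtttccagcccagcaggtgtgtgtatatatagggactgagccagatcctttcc
Krt23: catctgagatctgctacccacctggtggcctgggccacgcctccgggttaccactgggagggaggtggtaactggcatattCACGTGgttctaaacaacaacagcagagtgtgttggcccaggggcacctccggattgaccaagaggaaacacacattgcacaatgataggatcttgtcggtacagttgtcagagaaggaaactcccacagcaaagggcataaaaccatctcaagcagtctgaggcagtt
Krt25: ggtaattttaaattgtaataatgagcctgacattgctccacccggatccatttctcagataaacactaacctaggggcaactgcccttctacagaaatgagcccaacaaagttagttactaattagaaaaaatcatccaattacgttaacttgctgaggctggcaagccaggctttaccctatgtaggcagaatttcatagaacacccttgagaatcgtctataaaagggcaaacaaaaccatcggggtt

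At Krt14, the summit lay 123 bp upstream of the start with 56 WT reads, and at Krt10 121 bp upstream with 50 reads. The summits at Krt23 (123 bp upstream, 58 reads) and Krt25 (221 bp, 46 reads) were as weak, and none of these 4 peaks overlapped a KO peak. The summit at Krt77, 153 bp upstream, had 149 WT and 90 KO reads. In all WT peaks the kept share was 3.10% below 50 reads and 13.4% from 50 to below 60, and the 4 WT-only promoter peaks fell in these bands. Motifs were searched on both strands of the 250 bases: GGAATG, the core recognised by TEAD proteins, TGANTCA for AP-1, and CACGTG, the E-box bound by BMAL1 with CLOCK. Of the 37 keratin windows, 3 held GGAATG (8.11%, against 11.6% of all promoters), 2 held TGANTCA (5.41% against 6.17%) and 3 held CACGTG (8.11% against 6.70%). In the printed sequences, Krt14 has a GGAATG match and Krt23 a CACGTG match, with no overlap between motifs, and the Krt10, Krt77 and Krt25 windows hold none of the 3.

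Positions relative to a span depend on the gene model. Of the 26 WT summits inside a keratin span, 19 belonged to a gene in the promoter table, and 10 of these 19 lay upstream of its start there. The other 7 had no start to compare with. The 10 were 7 in the 50624 bp span of Krt78, 2 in Krt10 and 1 in Krt14. Inside a span lay 20.0% of keratin-linked WT peaks (13.5 to 27.9), against 53.3% of all WT peaks. The share was 13.6% on chromosome 11 and 26.6% on chromosome 15. Of the keratin-linked KO peaks, 13 of 66 lay inside a span (19.7%), against 50.9% of all KO peaks. Keratin spans other than that of Krt78 ran from 2812 bp at Krt16 to 21848 bp at Krt80. The inside shares were not matched for span length. Within 2 kb of either end of the span lay 26.9% (19.5 to 35.4), against 26.7% of all WT peaks. Among keratin-linked peaks, that share was 17.5% (9.05 to 29.1) of kept and 35.8% (24.5 to 48.5) of WT-only peaks, with overlapping intervals.

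The basal keratins Krt5, Krt14 and Krt15 had 15 linked WT peaks, 5 of them kept (33.3%, 11.8 to 61.6, against 39.1% of all WT peaks). At Krt5, all 3 WT peaks were kept, at 1072, 3128 and 4585 bp upstream of the start. The nearest, at chromosome 15 from 101713497 to 101715393, had 195 WT and 100 KO reads (ratio 0.513, 0.399 to 0.656), and it was not kept when 50% reciprocal overlap was asked. The other two had 80 and 91 WT reads and 40 and 45 KO reads. At Krt14, the partner of Krt5, 2 of 8 WT peaks were kept. The stronger, at chromosome 11 from 100208103 to 100209261, had 142 WT and 101 KO reads (ratio 0.711, 0.546 to 0.924). It lay 2685 bp upstream of the start in the promoter table but 1205 bp outside the gene span, which reaches past that start. The intervals of the ratios at Krt5 and Krt14 overlap. Krt15, a keratin of basal and hair follicle bulge cells, had 4 WT peaks, the strongest with 72 reads, and none was kept.

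Of the role groups, the suprabasal and palmoplantar keratins had the most linked WT peaks, but 21 of the 47 were linked to Krt80. All 8 of this group had a WT peak, against 52.5% of all genes. Their 47 WT peaks had a median of 75 reads, against 61 for all WT peaks. Of these, 25 were kept (53.2%, 38.1 to 67.9), an interval that holds the 39.1% of all WT peaks. Krt80 had 21 WT peaks, 10 of them kept, more linked peaks than any other keratin. Of the 21 summits, 5 lay nearer to Gm35853, 3 to Gm52200 and 4 to Gm671, all long noncoding RNA genes. A peak 377 bp outside the Krt80 span, at chromosome 15 from 101369582 to 101370835, had 185 WT and 108 KO reads. Krt77, a type II keratin, had 6 WT peaks, 5 of them kept. Its strongest, at chromosome 15 from 101875762 to 101876787 and 6486 bp upstream of the start, had 200 WT and 116 KO reads. The peak from 101855280 to 101856310, between Krt1 and Krt77, fell from 117 to 47 reads. Its ratio of 0.402 (0.280 to 0.568) was the lowest of the 63 kept keratin-linked peaks.

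Krt78 had 7 WT peaks, all inside its long span, and 6 were kept. The strongest 2 of these, at chromosome 15 from 101980739 to 101981331 and 101983860 to 101984647, had 151 and 170 WT reads and 84 and 93 KO reads. They lay 26733 and 30026 bp upstream of the Krt78 start in the promoter table, on the side of Krt8. Krt10 had 6 WT peaks, of which 2 were kept. The stronger, at chromosome 11 from 99390599 to 99392536, had 161 WT and 94 KO reads. It lay 1744 bp upstream of the start in the promoter table but inside the gene span. In KO it was covered by 2 peaks, so that it was not kept with 50% reciprocal overlap. The other, from 99403367 to 99404464, had 136 and 71 reads. Krt1, the partner of Krt10, had 2 weaker WT peaks: 86 reads with 39 in KO, and 68 reads with no KO peak. Krt9, a keratin of palm and sole skin, had 87 WT and 52 KO reads at its strongest peak. Krt2 and Krt76 had a single WT peak each, of 58 and 39 reads, and neither was kept.

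**Figure D3:**
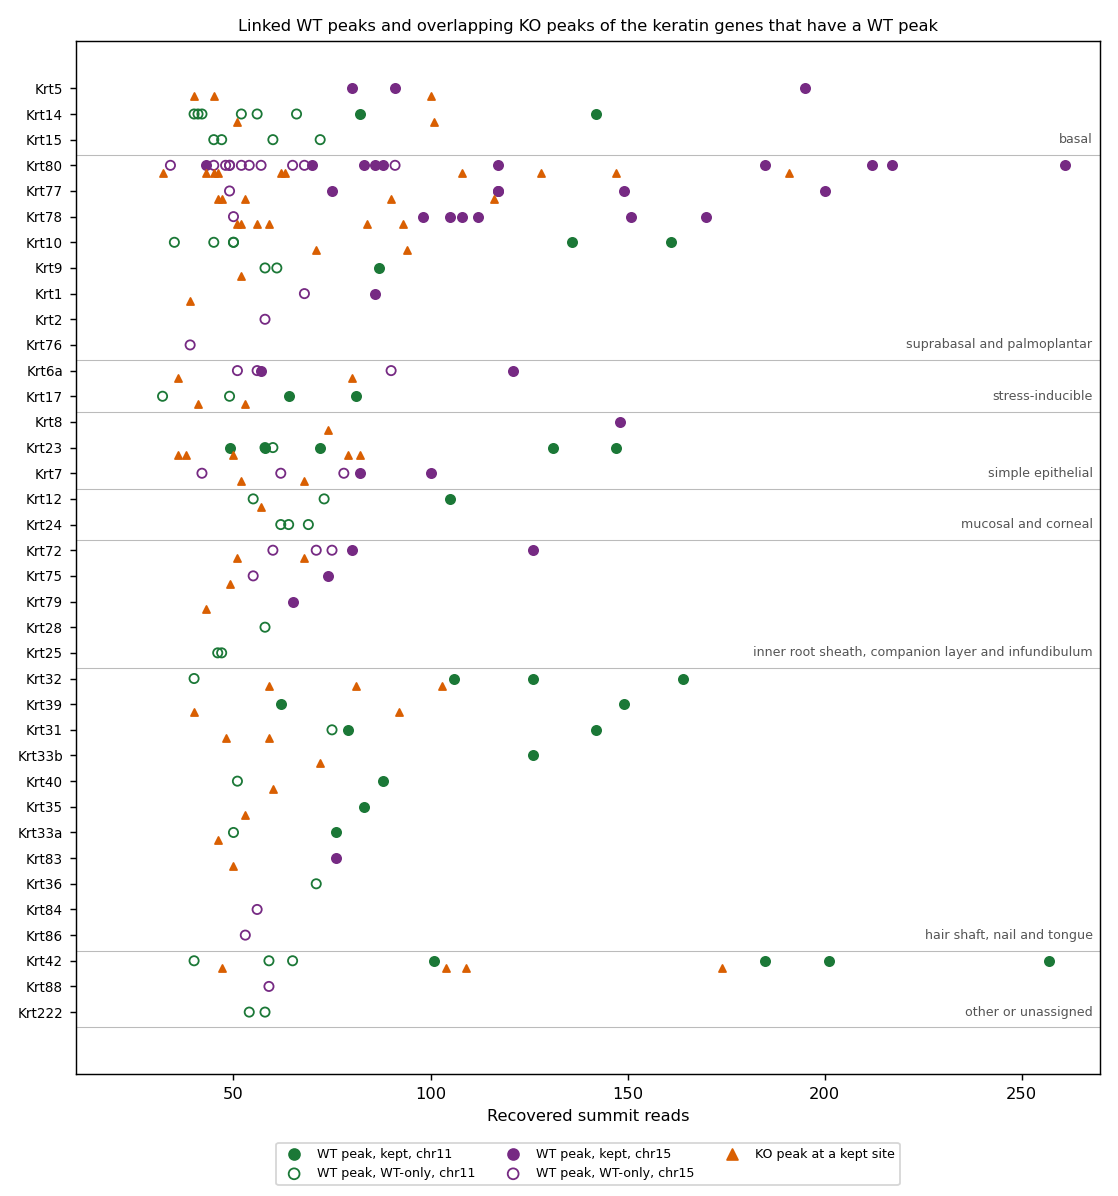
Recovered summit reads (horizontal axis) of each linked WT peak (circles; filled, overlapping a KO peak; open, WT-only) and of the overlapping KO peak (triangles) for the 37 keratins with a WT peak, grouped by role and coloured by cluster. Krt80, Krt42, Krt77 and Krt5 reach the highest WT values, between 195 and 261 reads, and every peak from 100 WT reads up is filled.

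Of the stress-inducible keratins, which rise in wounded and hyperproliferative epidermis, Krt6a and Krt17 had WT peaks, and Krt6b and Krt16 had none linked. Krt6a had 5 WT peaks, with 2 kept. The strongest, at chromosome 15 from 101695069 to 101696086 and 1464 bp outside the span, had 121 WT and 80 KO reads. A Krt6a peak of 90 WT reads, from 101699785 to 101700364, had no KO peak, whereas 80.7% of all WT peaks from 80 to below 100 reads were kept. Krt17 had 4 WT peaks. Its 2 kept peaks flanked the gene, 344 bp outside one end with 81 WT and 53 KO reads and 59 bp outside the other with 64 and 41 reads.

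Simple epithelial keratins had 13 WT peaks, of which 8 were kept (61.5%, 31.6 to 86.1), an interval that also holds 39.1%, the share of all WT peaks. The single peak of Krt8, at chromosome 15 from 102005316 to 102006031 and 1355 bp upstream of its start, had 148 WT and 74 KO reads. It lies between Krt8 and Krt18. Krt23 had 7 WT peaks, all but 1 in a run beyond its 3′ end, of which 5 were kept. The strongest, at chromosome 11 from 99468297 to 99469372, had 147 WT and 82 KO reads. A weaker neighbour, from 99472089 to 99472716, had 49 WT and 50 KO reads (ratio 1.02, 0.674 to 1.55). It was the single kept keratin-linked peak without fewer reads in KO. Below 50 WT reads, 2 of 23 keratin-linked peaks were kept. A peak this weak counts as kept only where KO has a called summit, of 29 reads or more, which limits how low its ratio can be. Krt7 had 5 WT peaks and 2 kept, the strongest with 100 WT and 68 KO reads. Of the mucosal and corneal group, Krt12 had 105 WT and 57 KO reads at its strongest peak, and 3 WT peaks of Krt24 had no KO peak.

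Hair keratins also carried YAP sites, mostly on chromosome 11. Of 15 matched keratins of the hair shaft, nail and tongue, 11 had a WT peak, against 52.5% of all genes. Of their 19 WT peaks, 12 were kept (63.2%, 38.4 to 83.7), an interval that holds the 39.1% of all WT peaks. Krt32 had the strongest, at chromosome 11 from 100066435 to 100068180, with 164 WT and 103 KO reads. Krt39 followed with 149 and 92 reads, at 99513280 to 99514664. Krt31 had 142 WT and 59 KO reads, at 100055416 to 100056360. Its ratio of 0.415 (0.301 to 0.567) was the lowest of the 28 kept peaks on chromosome 11. With 50% reciprocal overlap, these 3 peaks of Krt32, Krt39 and Krt31 were not kept. Krt33b had 126 and 72 reads, Krt40 88 and 60, Krt35 83 and 53, Krt33a 76 and 46 and, on chromosome 15, Krt83 76 and 50. The strongest WT peaks of Krt36, Krt84 and Krt86 had 71, 56 and 53 reads and no KO peak.

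Among keratins of the inner root sheath, companion layer and infundibulum, 5 of 9 matched genes had a WT peak, against 52.5% of all genes. Of their 11 WT peaks, 4 were kept (36.4%, 10.9 to 69.2), against 39.1% of all WT peaks. Krt72 had the strongest, at chromosome 15 from 101769890 to 101770955, with 126 WT and 68 KO reads. Krt75, a companion layer keratin, had 74 and 49 reads and Krt79 65 and 43. Krt25 and Krt28 had WT peaks of at most 47 and 58 reads and no KO peak. Of the keratins in no role group, Krt222 and Krt88 had WT peaks of at most 58 and 59 reads and no KO peak.

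Over both clusters, 63 of 130 keratin-linked WT peaks were kept (48.5%, 39.6 to 57.4), against 39.1% of all WT peaks. The share was 42.4% (30.3 to 55.2) on chromosome 11 and 54.7% (41.7 to 67.2) on chromosome 15, with overlapping intervals. All 66 keratin-linked KO peaks overlapped a WT peak (lower bound 94.6%), against 99.0% of all KO peaks. Keratin-linked WT peaks had a median of 63 reads on chromosome 11 (58 to 73, from the order of the peaks, which are not replicates), which holds the 61 of all WT peaks, and of 75.5 on chromosome 15 (65 to 88). At least 120 reads were found in 25 of 130 (19.2%, 12.8 to 27.1), against 10.1% of all WT peaks. The kept share was then taken by bands of WT reads. Below 50 reads, 2 of 23 were kept (8.70%, 1.07 to 28.0), against 3.10% of all WT peaks. From 50 to below 60 it was 2 of 26 (7.69%, against 13.4% of all WT peaks) and from 60 to below 70, 3 of 16 (18.8%, against 31.8%). From 70 to below 80 it was 7 of 14 (50.0%, against 54.9%), from 80 to below 100, 14 of 16 (87.5%, against 80.7%), and all 10 from 100 to below 120 (against 96.8%) and all 25 from 120 reads (against 99.8%) were kept. The interval of each band held the value of all WT peaks. With 10 to 26 peaks per band these intervals are wide, so they cannot show that the shares are alike.

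**Figure D4:**
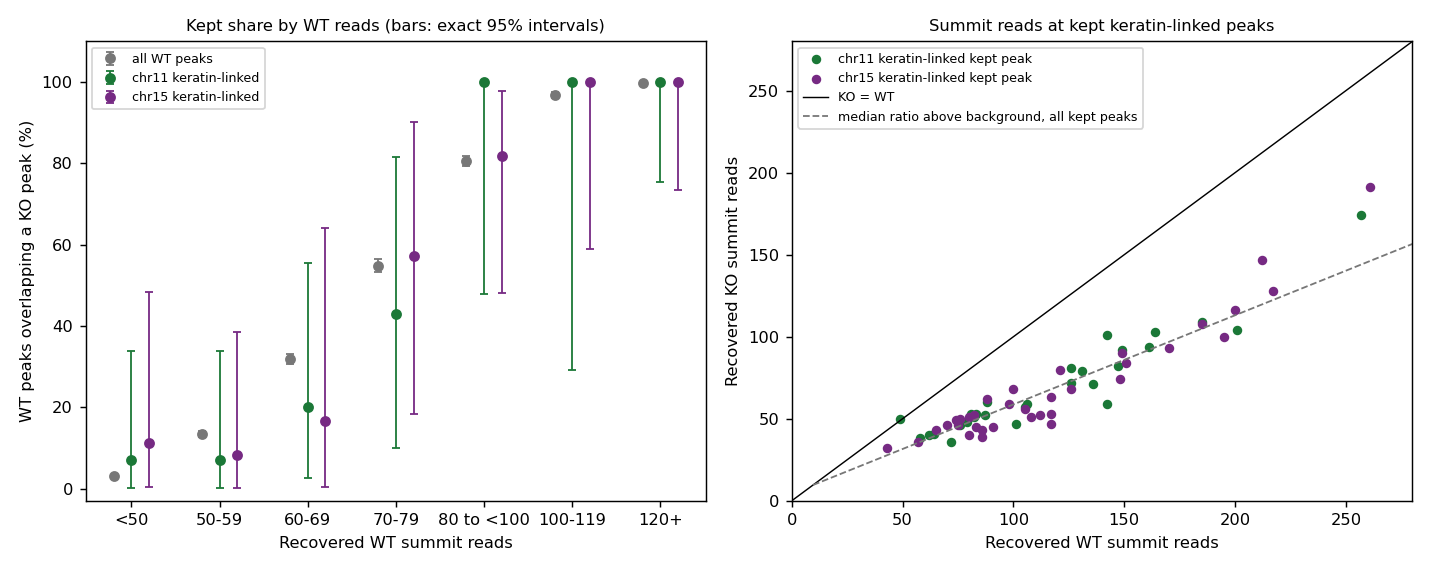
Left, kept WT peaks (vertical axis, %) by recovered WT reads, for all WT peaks and for those linked to keratins of each cluster, with exact 95% intervals; right, KO against WT summit reads at the 63 kept keratin-linked peaks, with the line of equal reads (solid) and the median ratio of all kept peaks above background (dashed). Kept shares climb with WT reads in both clusters, and all but 1 point lie below the line of equal reads.

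The strongest WT peaks without a KO peak were weaker on chromosome 11 than on chromosome 15. On chromosome 11 they were at Krt31 (75 reads), Krt12 (73), Krt15 (72), Krt36 (71) and Krt24 (69). On chromosome 15 they were at Krt80 (91), Krt6a (90), Krt7 (78) and Krt72 (75 and 71). WT-only peaks had a median of 54.5 reads on chromosome 11 and 56 on chromosome 15, against 51 for all WT-only peaks.

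At the kept sites, KO summits held fewer reads in 62 of 63 cases, against 99.5% of all kept WT peaks. Median reads were 105.5 in WT and 59 in KO on chromosome 11 (28 peaks), and 105 and 53 on chromosome 15 (35 peaks). Above background, log2 of KO over WT had a median of -0.81 on chromosome 11 (interquartile range -0.93 to -0.75) and -0.84 on chromosome 15 (-1.08 to -0.73), against -0.88 for all 14315 kept peaks. The clusters therefore overlapped in this ratio. The counting interval of the KO to WT ratio lay below 1 at 60 of the 63, against 83.5% of all kept peaks, whose median was 92 WT reads. Kept summits moved little, by a median of 34 bp on chromosome 11 and 23 bp on chromosome 15, against 33 bp for all kept peaks. Kept WT peaks had a median width of 838 bp on chromosome 11 and 716 bp on chromosome 15, and the KO peaks over them 518 and 457 bp. On chromosome 11, 3 kept peaks, at Krt10, Krt39 and Krt32, were covered by 2 KO peaks each, against none of 35 on chromosome 15 and 2.96% of all kept peaks.

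Genes whose products attach to keratin filaments also carried YAP sites. Of 11 such partners, 11 had a WT peak and 10 a kept one, against 52.5% and 29.7% of all protein-coding genes. Of their 79 WT peaks, 50 were kept (63.3%, 51.7 to 73.9), against 39.1% of all WT peaks. These peaks had a median of 76 WT reads, and those of the transcription factor genes below 65, against 61 for all WT peaks. The kept share climbs with WT reads, and it was not taken by read bands for these 2 lists. Plec, which encodes the linker plectin, had 265 WT and 214 KO reads at its strongest peak. Ppl, encoding periplakin, had 244 and 164 reads, Dst, encoding dystonin, 217 and 165, and Dsp, encoding desmoplakin, 209 and 131. These strongest peaks lay 12190 bp outside the Plec span, 2745 bp outside the Ppl span, and inside the spans of Dst and Dsp. The single peak of Pkp2, of 59 reads, was not kept. Of 13 transcription factor genes tied to keratinocyte and hair keratin programmes, 13 had a kept WT peak, against 29.7% of all genes, and 59 of 113 WT peaks were kept (52.2%, 42.6 to 61.7), against 39.1%. Trp63, which encodes the epithelial factor p63, had 24 WT peaks, 14 of them kept, with 235 WT and 156 KO reads at the strongest. Klf4 had 208 and 144 reads and Hoxc13, a factor of hair keratin expression, 174 and 113. The strongest peaks of Tfap2c, Lef1, Gata3, Grhl3 and Klf4 lay 85550, 84527, 64861, 49605 and 30508 bp from the gene. Those of Ovol1 and Dlx3 lay 9128 and 1560 bp away, and those of Foxn1, Hoxc13, Msx2, Tfap2a, Trp63 and Vdr inside the span. The gene shares were not matched for span length or distance to neighbouring genes.

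The tissue label was set beside marker genes, although YAP peaks do not measure transcripts. Linked WT peaks were found for 5 of 5 basal and 5 of 5 differentiated keratinocyte markers, among them Krt5, Krt14, Krt1 and Krt10. The numbers were 2 of 5 for fibroblasts, 4 of 5 for melanocytes, 1 of 4 for Langerhans cells and 1 of 3 matched for T cells, against 52.5% of all protein-coding genes. The strongest WT peak had 235 reads in the basal and 161 in the differentiated keratinocyte list. It had 54 reads in the fibroblast list, 93 in the melanocyte list, 57 in the Langerhans cell list and 58 in the T cell list. In this order the lists held 53, 15, 4, 5, 1 and 1 WT peaks, so these maxima come from unlike numbers of peaks. In bulk chromatin, fewer cells with a bound site and less binding per cell cannot be told apart.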

How the data were processed

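YAP ChIP-seq peaks of 1 pooled WT and 1 pooled KO list were used as deposited, without a header. The submitters' processing notes name Trimmomatic 0.36, SAMtools 1.5, MACS2 2.1.1 and mm10, without roles; no source used here gives the aligner, control or filters. The authors' score is 10 times −log10 q, truncated. Their fold is a ratio of summit signal to local background, and the deposited −log10 p and −log10 q are the caller's own (lowest −log10 q 2.01 in WT and 2.03 in KO). They served to rank and filter peaks and to recover reads.

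For Poisson peak scores, fold and −log10 p were solved for the reads and local background of every peak, with a scaling found from the list (0.694 for WT, 0.842 for KO). A whole number of reads matched −log10 p within 0.002 in 100% of peaks, against 0.76% and 0.40% of the first 5000 peaks of each list with the scaling 3% off. The procedure was tested on simulated data. KO to WT ratios in log2 have the background of 9.63 reads subtracted; ratios printed with an interval (exact, conditional on the sum of reads) do not. Where several KO peaks overlapped, the one with most reads was used. Overlap counts were the same with bedtools 2.31.1. Spans came from RefSeq (GRCm38.p6, chromosomes 1 to 19 and X), and sequences and start sites from the RefSeq promoter table. The role lists held Krt74, a pseudogene in this table, and Krt85, which was not matched. Trac was not matched among the markers.

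The members, lists and motifs were chosen with earlier results of these data known. Peaks were named by rule: the 10 with the most reads per cluster, the strongest of each gene, any KO-only peak (there was none) and the 5 strongest WT-only per cluster; other peaks named were chosen after their values were seen. Alternatives covered overlap, threshold, linking distance, gene type, pairing, background and gene-end distance.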

Additional observations from a re-analysis of the deposited data

How the results depend on the processing

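With the WT list reduced by score to the number of KO peaks, the kept share was 85.7% on chromosome 11 (28 peaks) and 83.3% on chromosome 15 (36 peaks), the shared KO share 87.1% and 85.7%, genes with a WT peak on chromosome 15 numbered 10, and 17.9% of WT peaks on chromosome 11 lay near a span end; this list holds only higher-scoring WT peaks. With 50% reciprocal overlap the shared KO share was 67.7% and 82.9%, and the strongest peaks of Krt10, Krt31, Krt32, Krt39 and Krt5 were not kept. Counting only summits inside spans left 6 genes with a WT and 3 with a KO peak on each chromosome. Linked among all gene types, an alternative chosen after seeing the data, 7 chromosome 15 genes had a KO peak. Without background subtraction the median log2 ratio on chromosome 11 was -0.72. Near a span end lay 16.7% and 7.81% at 1 kb, 53.0% and 46.9% at 5 kb, and, on chromosome 11, 15.1% within 2 kb of a start in the promoter table (chosen after seeing the data). The cause of shifts other than those of list length or distance was not tested. Of the other alternatives of the main results, 39 stayed within the interval or 1.5 times of the reported value; for strongest peaks, 106 overlaps stayed and 5 changed. Chromosome 15 kept a larger share than chromosome 11 in all but the reduced list. Weak sites are limited to those called. No paired analysis was possible because WT and KO have 1 pooled list each.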

Other observations

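Keratin-associated proteins form the matrix around hair keratins. Of 56 Krtap genes, 8 had a linked WT peak, against 52.5% of all protein-coding genes, although in such packed arrays another gene can be nearer. Of their 12 WT peaks, 3 were kept (25.0%, 5.49 to 57.2), against 39.1% of all WT peaks. The block within the chromosome 11 keratin cluster held most of them, with 7 of 23 Krtap genes. Its strongest peak, at chromosome 11 from 99633898 to 99634643 inside Krtap4-2, had 152 WT and 98 KO reads. The peak at Krtap3-3, from 99549458 to 99550271, had 106 and 61 reads. The Krtap cluster on chromosome 16 held 2 WT summits and no KO summit over 960 kb, or 0.208 WT summits per 100 kb against 1.39 over chromosomes 1 to 19 and X, whereas the block on chromosome 11 held 2.56.

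Of 16 intermediate filament genes outside the keratin family, 8 had a WT peak, against 52.5% of all protein-coding genes. Of their 35 WT peaks, 17 were kept (48.6%, 31.4 to 66.0), an interval that holds the 39.1% of all WT peaks. Lmna, which encodes the nuclear lamins A and C, had 13 WT peaks, 8 of them kept, with 186 WT and 101 KO reads at the strongest. Bfsp1 and Bfsp2, known for lens filaments, had 128 and 120 WT reads and 77 and 76 KO reads. Synm, encoding synemin, had 115 and 51 reads. Des, Prph and Lmnb2 had WT peaks of at most 50, 63 and 51 reads and none kept. Vim, Nes, Gfap, Nefl, Nefm, Nefh, Ina and Sync, genes of mesenchymal, glial, neuronal or muscle filaments, had no linked WT peak.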
